A study of Mus musculus with 8 samples.

Results

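The Pumilio, Nanos and DAZL mRNAs were examined in mouse oocytes that lack both CCR4–NOT deadenylases CNOT7 and CNOT8. The 5 genes were Pum2, Nanos1, Nanos2, Nanos3 and Dazl, found by their symbols among the 46078 genes of the count table. Total RNA was sequenced from fully grown oocytes at the germinal vesicle (GV) stage, the arrested stage before meiotic resumption, in 4 Zp3-Cre control libraries and 4 CNOT7&8 KO libraries of 100 oocytes each. Control females carried the Zp3-Cre transgene alone. CNOT7&8 KO females carried floxed alleles of both genes (Cnot7 fl/fl, Cnot8 fl/fl) together with Zp3-Cre, so that both groups shared the transgene. The zona pellucida gene promoter drives Cre in growing oocytes, and the deletion was thus restricted to oocytes and came after primordial germ cell life. Per the paper's methods, mice were on a C57BL/6J background, and oocytes were collected from females 4 weeks old after hormonal stimulation of the ovaries. No source used here says which animals gave which library, so p-values measure the spread between these libraries.

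The CCR4–NOT complex shortens poly(A) tails of mRNAs, and sequence-specific RNA-binding proteins recruit it to their targets. Pumilio proteins bind a short element in 3′UTRs that begins with UGUA, the Pumilio response element. Nanos proteins are zinc finger proteins that act with Pumilio and contact CCR4–NOT subunits directly, and they are known for germ cell development: Nanos3 in primordial germ cells, Nanos2 in male germ cells and Nanos1 in a wider range of tissues. DAZL binds U-rich elements in 3′UTRs of germ cell mRNAs and promotes translation during oocyte maturation. In oocytes many stored mRNAs also carry a cytoplasmic polyadenylation element (CPE), the U-rich binding site of CPEB1, near the poly(A) signal.

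The 3′UTR sites that these proteins are known to bind were searched in the 5 mRNAs themselves. The letters searched were TGTANATA for the Pumilio response element, TTTGTTT for an element described for DAZL and TTTTAT for the CPE, on the RNA-sense strand of the longest annotated 3′UTR (GRCm38, GENCODE annotation). The sites below are shown 5′ to 3′ with the matched letters in capitals and 8 bases of context on each side. They are the 3 Pumilio elements present, the only TTTGTTT in Dazl, and the CPE nearest the 3′ end in the Nanos and Dazl mRNAs that have one.
Pum2 Pumilio element, chr12:8750165-8750172, plus strand: tatagagaTGTATATAgaattata
Pum2 Pumilio element, chr12:8750418-8750425, plus strand: tacagaatTGTATATActtataat
Nanos1 Pumilio element, chr19:60757721-60757728, plus strand: tcatatcgTGTACATAtttggaaa
Dazl U-rich element, chr17:50280538-50280544, minus strand: ggtataatTTTGTTTaaagaatc
Nanos1 CPE, chr19:60759793-60759798, plus strand: cttgctagTTTTATcggctttt
Nanos2 CPE, chr7:18988877-18988882, plus strand: cagttgggTTTTATgctatcta
Dazl CPE, chr17:50279764-50279769, minus strand: caaaattcTTTTATgtcaccaa
The 3′UTR of Pum2 (2861 bases) held 2 copies of the Pumilio element, with the same 8 letters, and the 3′UTR of Nanos1 (2845 bases) held 1. Those of Nanos2 (947 bases), Nanos3 (172 bases) and Dazl (1854 bases) held none of these letters. Of the tested genes, 15132 had a 3′UTR of 50 bases or more in the annotation, and 25.7% of these had a Pumilio element. The share was 43.8% for 3′UTRs within 20% of the length of Pum2's and 43.9% for those near Nanos1's, so that the presence of a copy was common at such lengths. TTTGTTT occurred at 2 places in Pum2 and 1 in Dazl, against 40.3% of all 3′UTRs with a copy. Among 3′UTRs of similar length the share was 69.8% for Pum2 and 53.3% for Dazl. The CPE letters occurred 5 times in Pum2, 4 times in Nanos1, once in Nanos2 and 5 times in Dazl, and 56.2% of all 3′UTRs had a copy. At similar lengths that share was 84.6% for Pum2, 84.6% for Nanos1, 52.0% for Nanos2 and 75.8% for Dazl. One of the Pum2 CPE matches overlapped a TTTGTTT match. The Nanos2 CPE lay 80 bases before the annotated 3′ end, and downstream of it an AATAAA poly(A) signal lay 15 bases before that end. The Nanos1 copy shown lay 116 bases before its annotated end. Shorter annotated 3′UTRs exist for Pum2 (281 bases) and Dazl (198 bases). Neither the Pum2 elements nor the Dazl TTTGTTT are in those shorter forms, and the counts are per gene and do not tell the forms apart.

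Control libraries had 14943671 to 44092144 counts in total, and CNOT7&8 KO libraries had 8639444 to 26784110. A signal of 3 counts, taken as the smallest detectable, made 0.0802 CPM (reads of a gene relative to the scaled library total) in the deepest and 0.326 CPM in the shallowest library, which covers counting error only. Cnot8 mRNA fell to 21.0% and Cnot7 mRNA to 77.1% of the control mean. The paper reports from immunoblots that both proteins were absent in KO oocytes. Counts are per gene, so transcripts of a deleted allele are not told apart from intact ones. The oocyte markers were abundant in all libraries, with a summed level of the 10 markers of 16645 to 19602 CPM in control and 14217 to 16470 CPM in CNOT7&8 KO oocytes. Zp1, Zp3, Figla, Kit and Oosp1 were called lower, Nobox higher, and the other 4 were not called. Of all tested genes that averaged 100 CPM or more, 55.3% were called lower and 8.33% higher. The 4 haemoglobin genes were at 0 in all 8 libraries. Of the other blood markers, Ptprc averaged 0.122 CPM in control and 0.615 CPM in KO oocytes, with overlapping libraries. It was called higher, but it passed the filter on low counts only through the KO libraries. Lyz2 averaged 0.0182 and 0.138 CPM and was not tested. Granulosa markers summed to 115 to 151 CPM in control and 174 to 214 CPM in CNOT7&8 KO oocytes, and 4 of 8 tested were higher and 1 lower. The 4 were Nr5a2 (56.6 to 122 CPM), Inha (6.86 to 25.9 CPM), Inhba (2.49 to 5.50 CPM) and Fshr (1.29 to 3.87 CPM), and Cyp19a1 fell from 58.4 to 31.3 CPM. Amh (0.765 and 0.340 CPM), Hsd17b1 (2.90 and 3.33 CPM) and Amhr2 (0.588 and 1.03 CPM) were not called. Among all tested genes, 31.2% were called higher and 24.1% lower. Foxl2, also a granulosa marker, had at most 1 count in any library. Control replicate 1 and KO replicate 4 stood apart from the other libraries of their groups, and results are also given without both. They were also the deepest of their groups. Chi-square per degree of freedom on raw counts, which grows with depth, was 154 to 231 for pairs with control replicate 1. Other control pairs had 8.48 to 19.4. Pairs with KO replicate 4 had 44.6 to 102, and other KO pairs 22.3 to 35.6. The part of depth in this was not tested.

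Of the 5 mRNAs, 4 passed the filter on low counts (at least 0.2 CPM in 2 or more libraries) and were tested within all 19241 genes that did. Nanos1 was higher and Nanos2 lower in CNOT7&8 KO oocytes, Pum2 and Dazl were not called, and Nanos3 was not tested. Across all tested genes, 31.2% were called higher and 24.1% lower at an adjusted p of 0.05 (edgeR quasi-likelihood test, Benjamini-Hochberg adjustment over all genes), or 55.2% in either direction, so 1 call in each direction among 4 was near the background. The libraries of the groups did not overlap for 48.4% of all tested genes, and for Nanos1 and Nanos2 among the 4. The median log2 fold change of all tested genes was 0.12. A bulk library gives shares of its RNA, so less mRNA of a gene per oocyte and fewer oocytes that express it cannot be told apart.

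**Figure D1:**
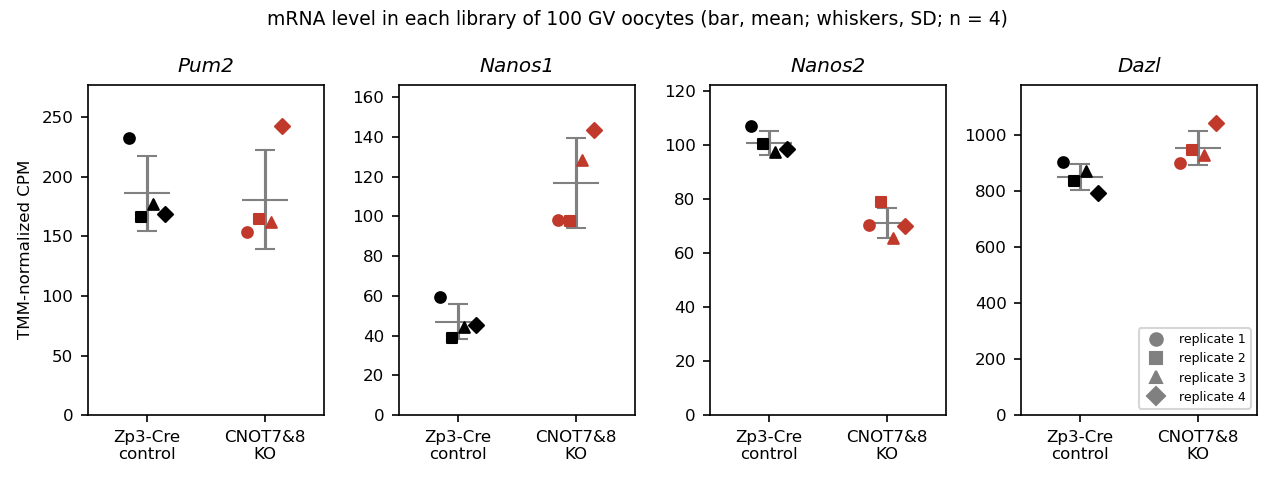
Level of Pum2, Nanos1, Nanos2 and Dazl mRNA in each library, in CPM scaled by TMM (y axis, linear from 0), for 4 Zp3-Cre control (black) and 4 CNOT7&8 KO (red) libraries. Bars are means and whiskers SD. The Nanos1 libraries of the groups do not overlap (38.9 to 59.6 against 98.0 to 143), nor do those of Nanos2, which lie the other way round, whereas the Pum2 and Dazl libraries overlap.

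Nanos1 (ENSMUSG00000072437) is a single-exon gene at chr19:60755987-60759914 on the plus strand (GRCm38), whose protein has 267 amino acids and whose transcript is mostly 3′UTR. Its level in the control libraries was 59.6, 38.9, 44.4 and 45.4 CPM in replicates 1 to 4. In the CNOT7&8 KO libraries it was 98.0, 98.0, 129 and 143 CPM. The lowest KO library lay well above the highest control library, and the groups did not overlap. The mean rose from 47.1 ± 8.82 to 117 ± 22.7 CPM (SD, n = 4 each), 2.48-fold, with a log2 fold change of 1.31 (SE 0.17, 95% interval 0.99 to 1.64) and an adjusted p of 4.2e-05 by edgeR's quasi-likelihood test. The exact permutation test over the 8 libraries gave p = 0.0286 (two-sided), the smallest that 70 assignments allow. Nanos1 also passed the 2-fold threshold for differentially expressed genes (DEGs), as did 23.8% of all tested genes upwards and 6.56% downwards. In genes that averaged 10 to under 100 CPM, as Nanos1 did, 12.7% were DEGs upwards. Its log2 fold change exceeded that of 76.6% of tested genes, so the increase was not among the most extreme. Without control replicate 1 and KO replicate 4 the log2 fold change was 1.34. The summed level of the granulosa markers was also higher in all 4 KO libraries, and its part in the Nanos1 result was not tested. These markers did not move together: Nr5a2 had the largest rise in CPM, and Cyp19a1 fell.

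Nanos2 (ENSMUSG00000051965), a single-exon gene at chr7:18987400-18988962 on the plus strand that encodes 136 amino acids, is best known as the Nanos gene of male germ cells and spermatogonial stem cells. It was nevertheless detected in every oocyte library, with 1350 to 4006 reads in control and 647 to 2050 in CNOT7&8 KO libraries. The control libraries held 107, 100.3, 97.3 and 98.3 CPM, and the KO libraries held 70.2, 78.9, 65.4 and 69.8 CPM. All 4 KO libraries lay below all 4 control libraries, and the spread within each group was narrow. The mean fell from 101 ± 4.40 to 71.1 ± 5.67 CPM (SD, n = 4 each), 70.6% of control, with a log2 fold change of −0.50 (SE 0.10, 95% interval −0.71 to −0.30) and an adjusted p of 0.00148 (edgeR quasi-likelihood test). The exact permutation p was 0.0286 (two-sided, the smallest possible). The decrease was short of the 2-fold DEG threshold. Calls of lower level were common at this abundance. In genes averaging 100 CPM or more, 55.3% were called lower and 8.33% higher, with a median log2 fold change of −0.37. From 10 to under 100 CPM, 36.8% were called lower and 25.8% higher, with a median of −0.17. Nanos2 lay near the border of these classes. An antisense gene, Gm45058, is annotated on the opposite strand within the Nanos2 locus. Gm45058 was not found by its identifier among the counted genes. The strand setting of the counting is not given in the sources used here, so reads of the pair may not have been separated. Of the spermatogonial markers examined with it, Stra8 had at most 1 count in any library, Zbtb16 averaged 0.219 CPM in control and 0.66 CPM in KO oocytes, and Gfra1 fell from 76.7 to 35.0 CPM. Uchl1, which neurons and oocytes also express, averaged 1049 CPM in control and 665 CPM in KO oocytes, with overlapping libraries and an adjusted p of 0.0327 (edgeR quasi-likelihood test). Id4 averaged 0.342 and 0.719 CPM and did not pass the test.

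Pum2 (ENSMUSG00000020594) spans chr12:8674134-8752581 on the plus strand, with 21 exons in its longest coding transcript and a protein of 1064 amino acids. Control libraries held 233, 166, 177 and 169 CPM, and KO libraries held 154, 165, 162 and 243 CPM. The groups overlapped throughout, and the single high library of each group was one of the pair that stood apart. The means were 186 ± 31.4 and 181 ± 41.6 CPM (SD, n = 4 each), with a log2 fold change of −0.04 (SE 0.16, 95% interval −0.36 to 0.28) and an adjusted p of 0.837 by the quasi-likelihood test of edgeR. The interval excludes a 2-fold change in either direction, but not a smaller one. The exact permutation test gave p = 0.571 (two-sided). Without the 2 libraries that stood apart the log2 fold change was −0.09, again without a call.

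Dazl (ENSMUSG00000010592), at chr17:50279395-50293636 on the minus strand with 11 exons and 298 amino acids, had the highest counts of the 5 genes, from 8282 to 33772 reads per library. Its level was 903, 835, 871 and 791 CPM in control and 899, 945, 929 and 1041 CPM in CNOT7&8 KO libraries. The groups overlapped only through KO replicate 1, which lay just below control replicate 1. The means were 850 ± 47.9 and 954 ± 61.5 CPM (SD, n = 4 each), or 112% of control, with a log2 fold change of 0.17 (SE 0.10, 95% interval −0.02 to 0.35) and an adjusted p of 0.157 (edgeR quasi-likelihood test). The exact permutation p was 0.0571 (two-sided). The difference thus did not pass the test with TMM scaling, and its interval excludes a doubling. Under 4 of 18 alternatives, 3 of them scalings that place all genes higher in KO oocytes, Dazl was called higher, with log2 fold changes from 0.24 to 0.45.

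Nanos3 (ENSMUSG00000056155), at chr8:84173731-84185217 on the minus strand, had 0 counts in all 4 control libraries and 0, 1, 0 and 1 counts in the CNOT7&8 KO libraries. The pooled counts were 0 of 96664269 in control, which allows up to 0.0310 CPM by the limit of 3 counts and up to 0.0382 CPM by the exact Poisson 95% interval, and 2 of 66066815 in KO oocytes, or 0.0303 CPM (exact Poisson 95% interval 0.00367 to 0.109). Both groups were at or under the detection floor, and no fold change is given. The microRNA genes Mir181c and Mir181d lie within the Nanos3 gene, and both were at 0 in all libraries.

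The relation between the 4 detected mRNAs was also read within each library, as ratios of raw counts, which no scaling of libraries can move. These 6 ratios of 4 genes were chosen after the values were seen, so their p-values are a description. The Nanos1 to Nanos2 ratio was 0.557, 0.388, 0.456 and 0.462 in control libraries and 1.40, 1.24, 1.97 and 2.05 in CNOT7&8 KO libraries. Reads of Nanos2 thus outnumbered those of Nanos1 in every control library, and the reverse held in every KO library. The ratio rose 3.52-fold by the difference of mean log2 ratios. Its arithmetic mean was 0.466 ± 0.0692 in control and 1.66 ± 0.406 in KO libraries (SD, n = 4 each). The exact permutation p was 0.0286, and 0.0429 after Benjamini-Hochberg adjustment over the 6 ratios. Nanos1 and Nanos2 had each separated the groups already, in opposite directions, so this outcome was fixed in advance. Its p thus adds no support to those results. The ratio of Nanos1 to Dazl rose 2.21-fold, from 0.0553 ± 0.00845 to 0.122 ± 0.0184. The ratio of Nanos2 to Dazl decreased from 0.119 ± 0.00523 to 0.0747 ± 0.00745, and that of Pum2 to Nanos1 from 3.97 ± 0.227 to 1.55 ± 0.202 (SD, n = 4 each). These 3 ratios did not overlap between the groups either, each with the same exact p and adjusted p as the first. The Pum2 to Nanos2 ratio (1.84 ± 0.231 against 2.56 ± 0.635, exact permutation p = 0.0571, adjusted p = 0.0686) and the Pum2 to Dazl ratio (0.219 ± 0.0271 against 0.188 ± 0.0300, exact permutation p = 0.171) did not pass the test. The balance of Nanos1 and Nanos2 reads differed between the groups whatever the scaling, which restates their separation in opposite directions. A ratio does not say which of its terms changed.

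**Figure D2:**
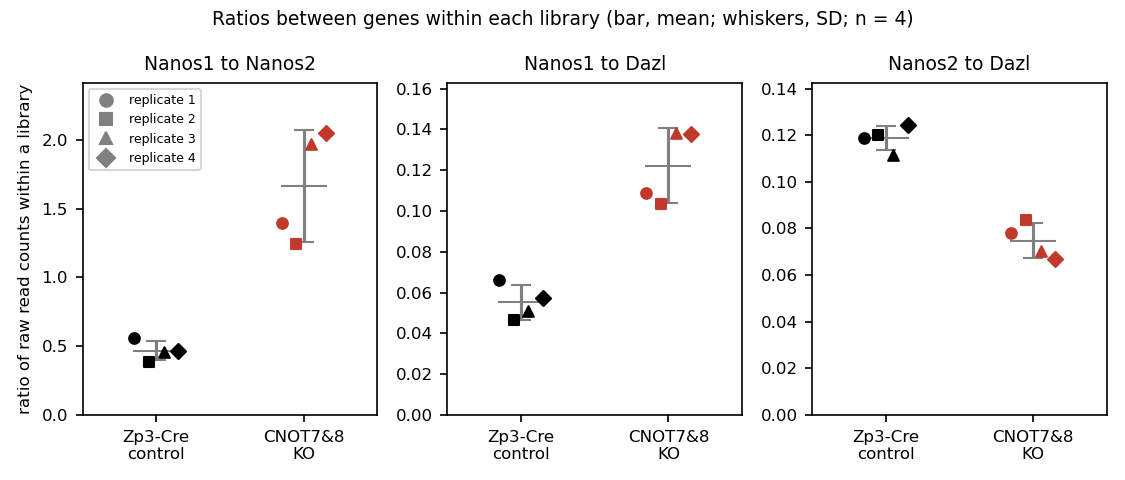
Ratio of raw read counts of Nanos1 to Nanos2, Nanos1 to Dazl and Nanos2 to Dazl within each library (y axis, linear from 0), for 4 control (black) and 4 CNOT7&8 KO (red) libraries, with means (bars) and SD (whiskers). Control and KO libraries are separate in all 3 panels, and the Nanos1 to Nanos2 ratio is below 0.6 in control and above 1.2 in KO libraries.

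TMM scaling takes most genes as unchanged, and its factors were 0.849 to 0.943 in control and 1.07 to 1.14 in KO libraries. Of the other scalings, 3 moved the median log2 fold change of all genes clearly upwards. The shift was 0.29 with library size alone, 0.25 with TMM computed on genes of at least 10 CPM and 0.10 with the upper quartile. RLE scaling (median ratio of counts to a reference) moved it by only 0.02. Nanos1 stayed higher under all of these scalings, with log2 fold changes from 1.31 to 1.60. Nanos2 had a negative log2 fold change under all of them, but it was −0.22 with an adjusted p of 0.0645 with library size alone (edgeR quasi-likelihood test), where the call was lost. Pum2 had a positive value under the 3 scalings that moved the median clearly, of 0.25, 0.21 and 0.06. With RLE scaling it was −0.03, and Pum2 was not called in any.

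**Figure D3:**
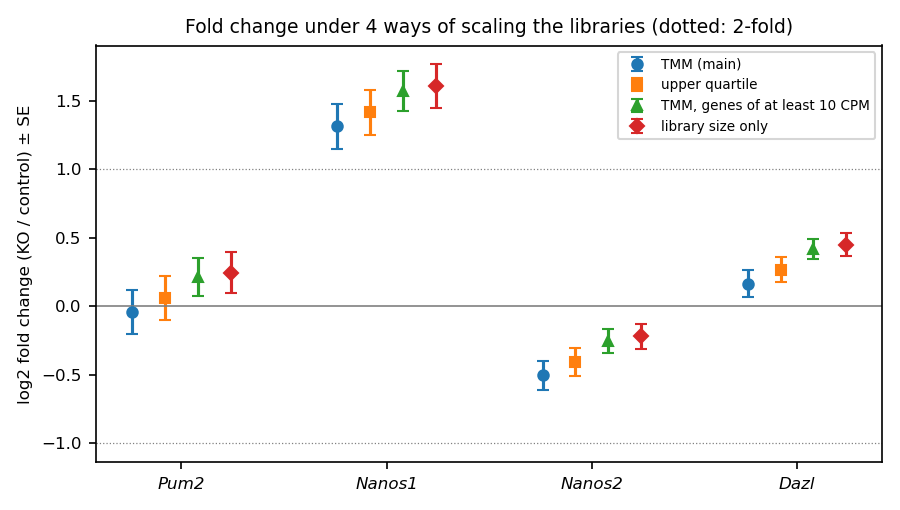
Log2 fold change of CNOT7&8 KO against control (y axis) with its SE for Pum2, Nanos1, Nanos2 and Dazl under 4 ways of scaling the libraries. RLE scaling is not drawn. All 4 genes shift upwards together, and Nanos1 stays above the 2-fold line (dotted, at 1) while Nanos2 ranges from −0.50 to −0.22.

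To compare levels between genes, CPM was divided by the length of the longest coding transcript. In control oocytes the order was Dazl at 286 ± 16.1 CPM per kb, Nanos2 at 64.4 ± 2.82, Pum2 at 29.5 ± 4.98 and Nanos1 at 12.0 ± 2.25 CPM per kb (SD, n = 4). No neighbours in this order overlapped between libraries, and Nanos3 was at 0. Dazl lay above 98.9% of the tested genes with a length, Nanos2 above 92.7%, Pum2 above 84.5% and Nanos1 above 72.1%. In CNOT7&8 KO oocytes Dazl was at 320.5 ± 20.7 and Nanos2 at 45.5 ± 3.62 CPM per kb (SD, n = 4), still first and second. Nanos1 at 29.8 ± 5.79 and Pum2 at 28.6 ± 6.59 CPM per kb (SD, n = 4) overlapped there and could not be ordered. Per length, Nanos2 was thus the more abundant Nanos mRNA in both groups, and the gap to Nanos1 was smaller in CNOT7&8 KO oocytes.

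The relatives and known partners of these proteins were examined next, as a list of 12 genes that includes the 5. Of the 11 tested, 4 were higher, 4 lower and 3 not called, with a median log2 fold change of −0.04 against 0.12 for all genes. These counts stand beside 31.2% higher and 24.1% lower among all genes, and with library size alone 5 were higher and 1 lower. Dnd1, counted among the higher, passed the filter on low counts only through the KO libraries and could only be called upwards. The median gene was Pum2, so the sign of this median turned with the scaling as that of Pum2 did. Pum3, a more distant nucleolar member of the family, fell from 83.1 ± 3.81 to 43.6 ± 2.51 CPM, by 0.93 on the log2 scale. Per kb of transcript, Pum2 and Pum3 were at 29.5 and 23.9 CPM per kb in control and at 28.6 and 12.6 CPM per kb in KO oocytes.

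Of the Nanos partners, Dnd1, which encodes the RNA-binding partner of NANOS2 in male germ cells, had 2, 6, 1 and 1 reads in control libraries and 44, 93, 105 and 88 in CNOT7&8 KO libraries. It passed the filter on low counts only through the KO libraries, so its call was bound to be upwards and no p is given. In 3 of 4 control libraries it was under the floor of 3 counts. The pooled ratio after scaling was 38.9 (95% interval 20.9 to 81.9, exact binomial, counting error only). The fitted log2 fold change of 5.27 rested on few control reads and was 6.16 without control replicate 2. Dnd1 reached only 4.84 ± 1.43 CPM (SD, n = 4) in KO oocytes. Snapin, whose product has been described to bind NANOS1, rose from 13.4 to 23.0 CPM. Ddx20, which encodes the helicase GEMIN3, rose from 19.6 to 42.0 CPM. Of the DAZ side, Dazap2 fell from 141 to 104 CPM and Dazap1 from 20.7 to 12.5 CPM, the last with overlapping libraries. Both lost the call with library size alone, at log2 fold changes of −0.15 and −0.45, and with TMM on genes of at least 10 CPM. The Dazap1 call was also lost without KO replicate 2 (adjusted p = 0.053). Boll, the ancestral DAZ family member, was near the floor at 0.322 and 0.241 CPM. The calls of Pum3, Snapin and Ddx20 kept their direction under all scalings tried, RLE among them. Dnd1 is not set beside them, because the filter had fixed its direction.

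CCR4–NOT subunits, the complex that Nanos and Pumilio proteins bind, were lower for 8 of 12, the deleted Cnot7 and Cnot8 among them, and higher for none, with a median log2 fold change of −0.40. The share called lower was 24.1% of all tested genes and 55.3% of those averaging 100 CPM or more, the class of many subunits. Without control replicate 1 and KO replicate 4, 9 were lower and 2 higher. Of those not deleted, Cnot10 fell from 97.8 to 39.5 CPM, Cnot2 from 229 to 122 CPM and Cnot3 from 81.8 to 41.1 CPM. The last pair are subunits of its NOT module. Cnot1, the scaffold, averaged 328 and 237 CPM with overlapping libraries, and its adjusted p of 0.049 (edgeR quasi-likelihood test) rose above the threshold when any one of 6 libraries was left out, up to 0.131. Without control replicate 1 and KO replicate 4 together its log2 fold change was −0.48 with an adjusted p of 0.000163, and without KO replicate 4 alone it was −0.64 with an adjusted p of 0.00223 (same test). Cnot11 averaged 141 CPM in control and 105 CPM in KO oocytes, Tnks1bp1 averaged 199.6 and 154 CPM, and both were called lower. Cnot6, Cnot6l, Cnot4 and Cnot9 were not called. With library size alone 4 were lower and 1 higher, with a median of −0.11.

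Among mRNAs described as bound or regulated by Pumilio or DAZL, the direction was mixed. Of 5 Pumilio-associated mRNAs, Atxn1 rose from 58.9 to 82.0 CPM and Mad2l1, which encodes a spindle checkpoint protein, fell from 243 to 122 CPM. Ccnb1 (cyclin B1, 1625 and 1569 CPM), Cdkn1b (35.6 and 34.3 CPM) and E2f3 (0.906 and 1.58 CPM) were not called with TMM scaling. E2f3 was called higher with library size alone (adjusted p = 0.0411, edgeR), with TMM on genes of at least 10 CPM (adjusted p = 0.0436) and without both libraries that stood apart (log2 fold change 1.24, adjusted p = 0.0285). Ccnb1 was called higher with TMM on genes of at least 10 CPM (0.21, adjusted p = 0.0411, edgeR). Of 6 DAZL-associated mRNAs, 3 were higher, 2 lower and 1 not called, with a median log2 fold change of 0.56, against 31.2% higher and 24.1% lower among all genes. With library size alone, the upper quartile or TMM on genes of at least 10 CPM, 4 were higher and 1 lower, with medians up to 0.85. With RLE scaling 3 were higher and 2 lower. Tex19.1, a germ cell gene with a close paralog that may share reads, rose from 131 ± 11.0 to 361 ± 38.5 CPM, Ddx4, the germ cell marker VASA, from 71.7 ± 20.2 to 139 ± 14.1 CPM, and Sycp3, of the meiotic synaptonemal complex, from 18.2 ± 2.88 to 33.0 ± 6.37 CPM (SD, n = 4). Cdc20, an activator of the anaphase-promoting complex, fell from 89.6 to 53.9 CPM, and the spindle assembly factor Tpx2 fell from 274 to 214 CPM. Tpx2 lost the call with the other 3 scalings and without control replicate 1 (−0.22), KO replicate 1 (−0.29) or KO replicate 3 (−0.28), whereas the other calls among these lists held under all 4 scalings. Sdad1 was at 26.7 and 32.1 CPM and was not called with TMM scaling, but was called higher with each of the other 3 scalings.

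**Figure D4:**
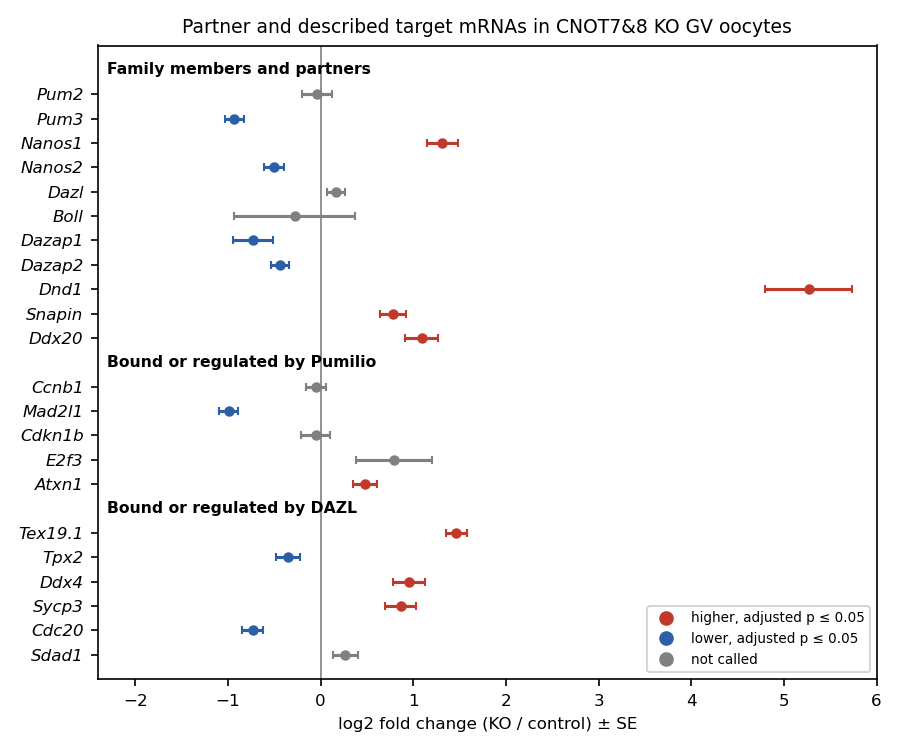
Log2 fold change of CNOT7&8 KO against control (x axis) with its SE for the 11 tested family members and partners, the 5 Pumilio-associated and the 6 DAZL-associated mRNAs. Red marks genes called higher, blue genes called lower and grey those not called; Dnd1, which passed the filter only through the KO libraries, is at 5.27, and calls in both directions occur in every group.

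Finally, genes were grouped by the Pumilio elements in their longest annotated 3′UTR, as a description without a test. Of 11237 genes without a copy, 29.4% were called higher and 29.0% lower, with a median log2 fold change of −0.01. Of 2669 genes with 1 copy, the number found in Nanos1, 33.1% were higher and 26.3% lower, with a median of 0.10. Of 820 genes with 2 copies, the number found in Pum2, 37.1% were higher and 23.2% lower, with a median of 0.17. For 406 genes with 3 or more copies these shares were 39.7% and 18.5%, with a median of 0.24. The share called higher therefore increased with the copy number, but so did the length of the 3′UTR, from a median of 857 bases without a copy to 3914.5 bases with 3 or more. The median level also rose, from 11.5 CPM without a copy to 30.7 CPM with 3 or more. Within length classes, genes with a copy had a lower median than those without at 50 to under 500 bases (−0.35 against −0.12) and at 500 to under 1000 bases (−0.09 against −0.06). They had a higher median at 1000 to under 2000 bases (0.12 against 0.06) and at 2000 to under 4000 bases (0.22 against 0.12). With the shortest annotated 3′UTR of each gene, the class of 500 to under 1000 bases turned (0.069 against 0.055), and that of 50 to under 500 bases did not (−0.27 against −0.08). Genes with a copy thus had the lower median at 50 to under 500 bases and the higher one from 1000 to under 4000 bases with either choice of 3′UTR. The length classes were not matched for level. By the longest 3′UTR, genes with a copy had a median of 22.3 CPM against 7.26 CPM without at 50 to under 500 bases. Genes with TTTGTTT numbered 6100, of which 34.3% were higher and 24.9% lower, with a median of 0.12, against 30.8% higher and 27.9% lower among all 15132. Their 3′UTRs were longer, with a median of 2121.5 bases against 674 bases without TTTGTTT, and were not split by length. With library size alone the medians by number of Pumilio elements were above 0, from 0.28 without a copy to 0.53 with 3 or more. The length classes were not recomputed with that scaling.

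**Figure D5:**
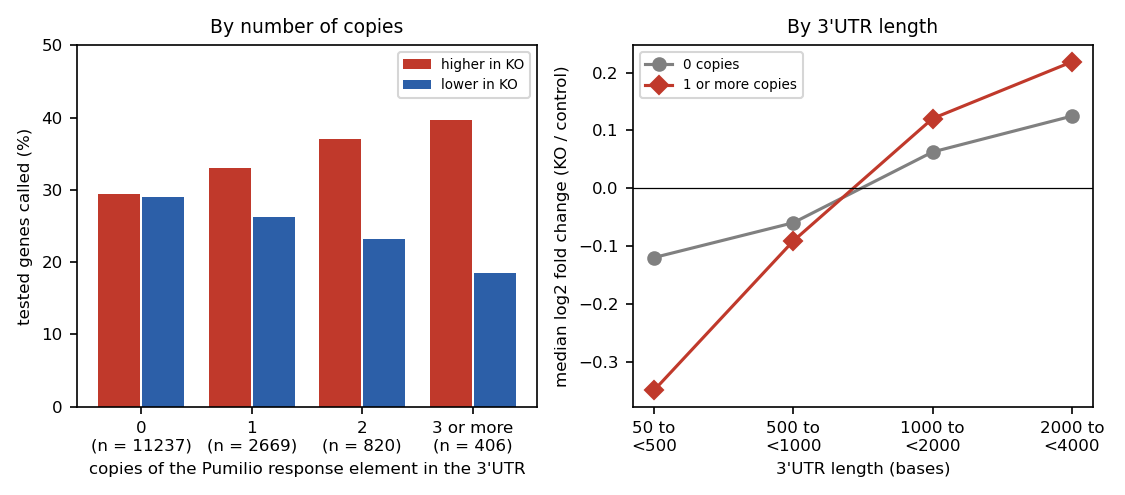
Left, percentage of tested genes called higher (red) or lower (blue) in CNOT7&8 KO oocytes by the number of Pumilio elements in the longest 3′UTR. Right, median log2 fold change of genes with 1 or more copies (red) and none (grey) in 4 classes of 3′UTR length in bases; the red line lies below the grey one for the shorter classes and above it for the longer ones.

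The genes whose log2 CPM most resembled each mRNA over the 8 libraries were also listed, out of 12260 candidates that averaged 1 CPM or more. Libraries share their group and depth, so these Pearson correlations are a description. For Nanos1 they were Tigd2 (r = 0.998), Megf9 (r = 0.997) and Krit1 (r = 0.997), all called higher. For Nanos2 they were Il17f (r = 0.998), Elf2 (r = 0.996) and Trappc2l (r = 0.996), all called lower. Pum2 was most like Casc5 (r = 0.982), Larp4 (r = 0.974) and Mbtd1 (r = 0.970), none of which was called and which, like Pum2, varied mostly within the groups. Dazl was most like Ate1 (r = 0.981), Nicn1 (r = 0.974) and Slc24a2 (r = 0.972), of which Ate1 and Slc24a2 were called higher.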

How the data were processed

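RNA of GV oocytes was measured in 8 libraries, grouped and numbered as the labels give them. The authors depleted ribosomal RNA, mapped reads to GRCm38 with STAR 2.6.1d per the labels and methods (nf-core/rnaseq), and deposited unnormalized, unpooled counts of reads on each gene. The counting tool, annotation and strand setting are not given in the sources used here. The labels name a stranded total RNA kit, and the paper a stranded mRNA kit.

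Counts were tested in R 4.3.3 with edgeR 4.0.16 and limma 3.58.1, with DESeq2 1.42.0 as an alternative. Genes with at least 0.2 CPM in 2 libraries entered edgeR's quasi-likelihood test with TMM scaling and Benjamini-Hochberg adjustment, and DEGs were also changed at least 2-fold. CPM are counts over the scaled library size. Correlations were taken on log2 CPM (prior count 2). On simulated counts of 18510 genes, the test recovered 168 of 200 4-fold changes with 16 false calls. Only those 200 genes were changed, whereas 55.2% of tested genes were called in the data. The simulation thus does not cover so wide a change, nor changes under 2-fold. Of the gene identifiers, 98.0% matched GENCODE vM21 (GRCm38), the source of positions, lengths and 3′UTRs.

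The members and lists were chosen with earlier results of these data known. Named genes were the 5 members, the genes of the lists, and for each detected member the 3 tested genes most correlated with it that averaged 1 CPM or more and had no Gm or Rik name. The CPE search, the ratios and the joint removal of control replicate 1 and KO replicate 4 were added after values were seen. Pum3 and Cnot9 were matched by Ensembl identifier, and of 2 identifiers for Boll the one with more counts was used. One further gene first placed in the partner list is left out and not reported here. Alternatives were other tests, scalings and filters, a replicate block and leaving out each library. Exact permutation tests ran over 70 assignments.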

Additional observations from a re-analysis of the deposited data

Results flagged for a closer look

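Within groups of 4 libraries, single libraries lay far from the others for Pum2 in 3 of 20 groups of values examined, where about 1 in 20 is flagged by chance. Pum2 was at 233 CPM in control replicate 1, against 166 to 177 CPM in the other control libraries. It was at 243 CPM in KO replicate 4, against 154 to 165 CPM in the other KO libraries. The Pum2 to Dazl count ratio in KO replicate 4 was 0.233, against 0.171 to 0.174 in the others.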

How the results depend on the processing

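Nanos1 was called higher under all 18 alternatives, with log2 fold changes from 1.22 to 1.60. Nanos2 kept its call under 17 of 18 and was −0.22 with library size alone, where adjusted p was 0.0645. Dazl, not called otherwise, was called higher at 0.45 with library size alone, 0.42 with TMM on genes of at least 10 CPM, 0.27 with the upper quartile and 0.24 with the filter set to 1 CPM or more in 4 libraries. Pum2 was never called, and its sign turned under the same settings, to 0.25, 0.21, 0.061 and 0.029. Without one library each, log2 fold changes were −0.19 to 0.084 for Pum2, 1.22 to 1.45 for Nanos1, −0.54 to −0.44 for Nanos2 and 0.13 to 0.22 for Dazl. Pum2 turned positive without control replicate 1 (0.084) and without KO replicate 1 (0.06), 2 (0.03) or 3 (0.04).

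Genes called higher numbered 5997 and lower 4631, with 5363 to 6189 and 4086 to 4843 without one library. Lower genes numbered 2620 with library size alone, 2863 with TMM on genes of at least 10 CPM and 1263 with the 2-fold rule. With library size alone 7742 were higher. Medians of genes with the Pumilio element and with TTTGTTT moved from 0.12 each to 0.41 and 0.41 with library size alone, 0.38 and 0.37 with TMM on genes of at least 10 CPM and 0.22 and 0.22 with the upper quartile. The cause of these changes was not tested beyond the scaling itself.

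Same-numbered libraries deviated together only weakly (r = −0.07, −0.04, 0.11 and −0.12), so the numbers were not taken to pair them. Of all pairs of a control and a KO library, control replicate 1 and KO replicate 4 had the highest r, 0.37. These were the libraries that stood apart. The lowest r was −0.33, for control replicate 1 and KO replicate 3. A block by replicate number does not cover such a relation, and its cause was not tested. With a replicate block, Nanos1 had a log2 fold change of 1.31, Nanos2 −0.50, Pum2 −0.05 and Dazl 0.17, with the same calls, and 5511 genes were higher and 4201 lower. The alternatives for Nanos3 gave no value because it did not pass the filters, except without a filter, where it was not called (adjusted p = 0.223, edgeR). Low values are limited by the shallowest library.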
